A study of Mus musculus with 5 samples.

Results

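The B7 family ligands are cell surface proteins of the immunoglobulin superfamily through which an antigen-presenting cell tells a T cell whether to respond. The 7 genes examined were Cd80, Cd86, Cd274, Pdcd1lg2, Icosl, Cd276 and Vsir, taken by name from the 27678 gene symbols of the table. All 7 were present and all 7 passed the filter on low values, among 13813 genes tested. They were measured by RNA-seq in 3 Etv3-/- and 2 Etv3+/+ libraries of mouse dendritic cells. Both genotypes had the same treatment. Marrow was kept for 6 days in GM-CSF (20 ng/ml) together with IL-4 (5 ng/ml), which yields dendritic cells. Sorting by CD11c, intermediate CD11b and strong MHC class II staining, without CD115, gave cells of over 95% purity. The labels give neither the design of the Etv3 allele nor the age of the mice, and do not say whether the libraries of a genotype came from separate mice. Etv3 encodes an ETS family transcription factor, and the comparison addresses what its loss changes in dendritic cells with a tolerogenic role.

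CD80 and CD86 bind CD28, the activating costimulatory receptor of T cells, and bind the inhibitory receptor CTLA-4 more tightly. PD-L1, encoded by Cd274, and PD-L2, encoded by Pdcd1lg2, engage the inhibitory receptor PD-1, and PD-L1 also binds CD80 on the same membrane. ICOS ligand supports helper T cells through ICOS, VISTA, encoded by Vsir, restrains T cells, and B7-H3, encoded by Cd276, lacks an agreed receptor. On dendritic cells CD80 and CD86 rise with maturation, while PD-L1 and PD-L2 are induced by cytokines, PD-L2 above all by IL-4 through STAT6.

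Recovered depth was 42983550 to 68253936 reads per library. Etv3 itself had 18691, 20416 and 22856 normalized counts in Etv3-/- cells and 23050 and 25447 in Etv3+/+ cells (log2 fold change -0.23, limma adjusted p = 0.567). The disrupted part of the locus is unknown here, so that total is no check of the deletion, and genotypes are as labelled. The 9 dendritic cell markers were detected in every library and made up 4.04% to 5.53% of normalized counts in Etv3-/- cells and 1.56% and 2.48% in Etv3+/+ cells. Most of that sum came from the MHC class II genes H2-Aa, H2-Ab1 and H2-Eb1 and from Cd74. They averaged 533884, 719932, 237048 and 853963 normalized counts in Etv3-/- cells and 225320, 247121, 78486 and 527129 in Etv3+/+ cells. Of the rest, Flt3, Zbtb46, Itgax, Itgam and Ciita had log2 fold changes of 0.02, 0.20, 0.39, 1.28 and 1.33. The 12 macrophage and monocyte markers made up 0.107% to 0.143% in Etv3-/- cells and 0.0578% and 0.0656% in Etv3+/+ cells, with Fcgr1 at 0 in both Etv3+/+ libraries. The 8 B cell markers made up 0.00686% to 0.0117% in Etv3-/- cells and 0.00298% and 0.00433% in Etv3+/+ cells. Macrophages and B cells can also carry B7 ligands, and their part in the values below was not tested. In sorted bulk RNA, fewer cells of a type and less RNA per cell cannot be told apart.

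None of the 7 genes passed the test for a genotype difference. With limma at an adjusted p under 0.05, 0 of 7 were called, where 1.19% of all genes tested were called, 0.876% higher and 0.319% lower. At an unadjusted p under 0.05 the limma count was also 0 of 7, where 18.0% of all genes fell under that level. On recovered reads edgeR called 0 of 7, where it called 1.14% of all genes, 0.825% higher and 0.319% lower, and DESeq2 called 0 of 7, where it called 8.46%, 4.60% higher and 3.86% lower. At an unadjusted p both counts were 0 of 7, where edgeR had 17.0% and DESeq2 20.2% of all genes. Such a p does not show that the genotypes act alike, and the intervals below give what each gene allows. Positive log2 fold changes were found for 4 members and negative ones for 3, with a median of 0.29, against a median of -0.06 over all genes tested. For Pdcd1lg2 and Vsir every Etv3-/- library was above every Etv3+/+ library, 2 of 7 members, where 16.7% of all genes tested were higher in that way, 19.3% were lower and 36.0% did not overlap in either direction. The plot of values by library shows both, and the overlap of the genotypes for the other 5.

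**Figure D1:**
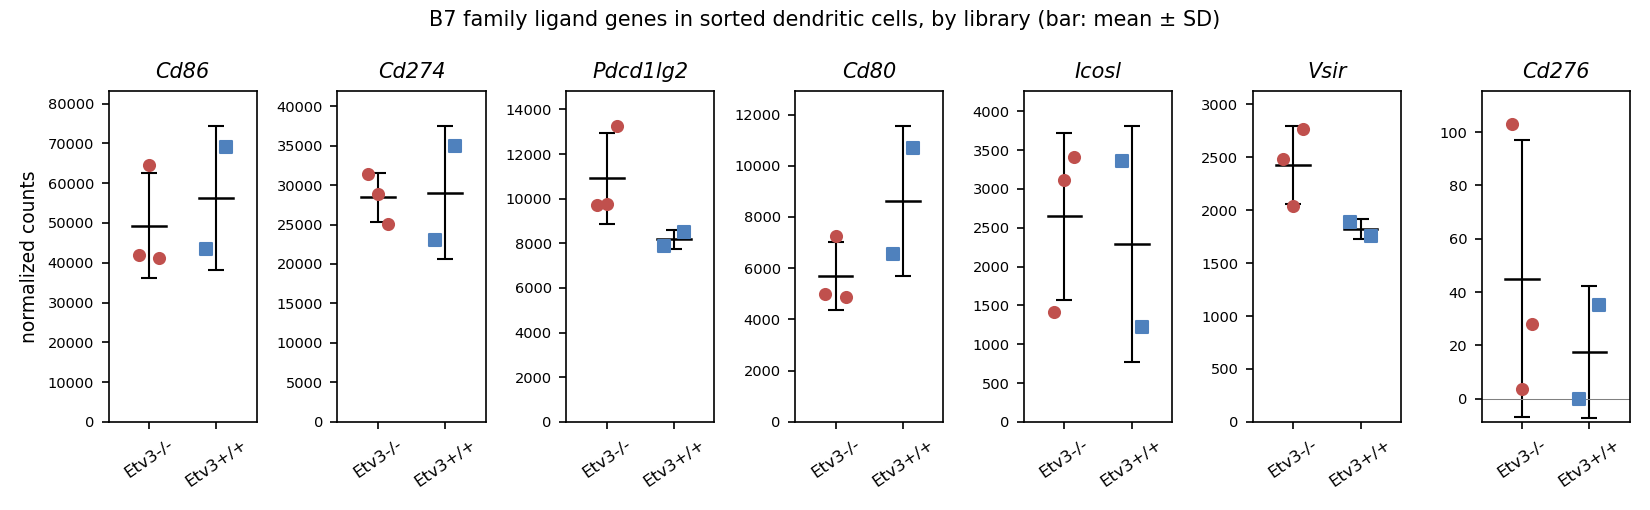
Normalized counts (y axis, linear, a separate scale for each gene) of the 7 B7 family ligand genes in 3 Etv3-/- libraries (red circles, left) and 2 Etv3+/+ libraries (blue squares, right), with black bars for the mean ± SD. Pdcd1lg2 and Vsir are the genes whose genotypes do not overlap, with Pdcd1lg2 at 9705 to 13257 in Etv3-/- cells and at 7887 and 8491 in Etv3+/+ cells.

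The levels of the ligands spanned a wide range. On the scale of normalized counts per kb of the longest annotated transcript, Cd86 was the highest, at 19406 ± 5202 in Etv3-/- cells and 22161 ± 7132 in Etv3+/+ cells (SD, n = 3 and 2). Its level exceeded that of 98.9% of tested genes with a length. Cd274 followed at 7850 ± 865 per kb in Etv3-/- cells and 8018 ± 2328 in Etv3+/+ cells. Pdcd1lg2 came next at 6310 ± 1176 per kb in Etv3-/- cells and 4736 ± 247 in Etv3+/+ cells. The ranges of Cd274 and Pdcd1lg2 over the 5 libraries overlapped, with Cd274 above Pdcd1lg2 in 4 of 5 libraries, so these neighbours in the order were not separated beyond their spread.

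Cd80 stood at 1797 ± 421 normalized counts per kb in Etv3-/- cells and 2716 ± 925 in Etv3+/+ cells, a level below that of Pdcd1lg2 and above that of Icosl in all 5 libraries. Icosl, at 941 ± 383 and 815 ± 540 per kb in Etv3-/- and Etv3+/+ cells, and Vsir, at 501 ± 75.7 and 376 ± 19.3 per kb in Etv3-/- and Etv3+/+ cells, overlapped in range, with Icosl above in 4 of 5 libraries. Cd276 was close to the limit of detection at 12.5 ± 14.4 per kb in Etv3-/- cells and 4.87 ± 6.89 in Etv3+/+ cells, and the mean level of Cd86 over all libraries was 2172 times that of Cd276. Over the union of all exons the order of the 7 genes was the same, with a mean of all libraries of 542 per kb for Icosl and 436 for Vsir, against 890 and 451 with the longest transcript.

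Of the CD28 and CTLA-4 ligands, Cd80 (chromosome 16, 38455561 to 38496335, plus strand, 7 exons in the longest transcript; GENCODE M21 on GRCm38, the assembly of mm10) stood at 4984, 7243 and 4876 normalized counts in Etv3-/- replicates 1 to 3, against 6544 and 10692 in Etv3+/+ replicates 1 and 2. The lowest values were in Etv3-/- cells and the highest in Etv3+/+ cells, but Etv3-/- replicate 2 lay above Etv3+/+ replicate 1. The log2 fold change of -0.58 (95% interval -1.24 to 0.09, limma adjusted p = 0.343) allows a fall of up to 2.37-fold and a rise of up to 1.06-fold. Its unadjusted p of 0.0801 was the lowest of the 7 limma values. Without Etv3+/+ replicate 1 the change was -0.93, and without Etv3+/+ replicate 2 it was -0.22.

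Cd86 (chromosome 16, 36603869 to 36666081, minus strand) was read at 42043, 64516 and 41258 normalized counts in Etv3-/- replicates 1 to 3, against 43463 and 69071 in Etv3+/+ replicates 1 and 2. One library of each genotype was high, and the genotypes overlapped. The estimated log2 difference of -0.19 (95% interval -0.89 to 0.52, limma adjusted p = 0.798) leaves room for a fall of 1.86-fold or a rise of 1.44-fold. Its sign turned to 0.15 without Etv3+/+ replicate 2, and it was -0.52 without Etv3+/+ replicate 1 and -0.40 without Etv3-/- replicate 2.

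Cd80 and Cd86 varied together over the libraries, and their ratio within a library was steadier than either gene. Cd80 made up 10.6%, 10.1% and 10.6% of the normalized counts of the pair in Etv3-/- cells, against 13.1% and 13.4% in Etv3+/+ cells. The log2 ratio of Cd80 to Cd86 was -3.10 ± 0.04 in Etv3-/- cells and -2.71 ± 0.03 in Etv3+/+ cells (SD, n = 3 and 2), a difference of -0.39 with no overlap. The exact permutation test, two-sided over all 10 splits, returned p = 0.1, the smallest it can give, or 0.3 adjusted over the 3 ratios compared, so this design cannot pass the threshold. The difference was -0.41 to -0.37 with any single library left out.

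**Figure D2:**
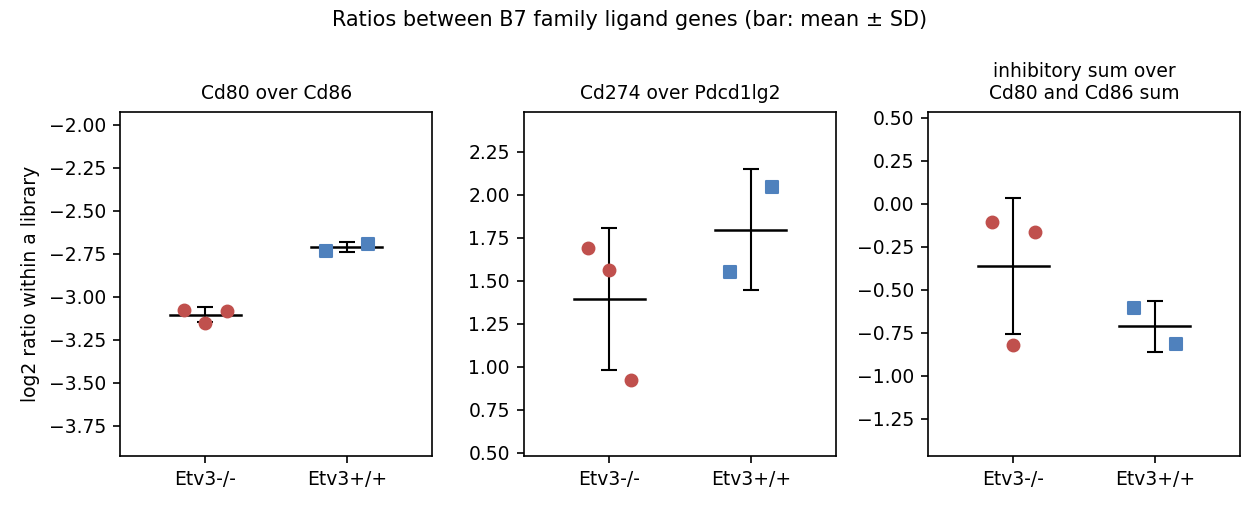
Log2 ratios within each library (y axis, each panel spanning 2 log2 units) of Cd80 over Cd86, of Cd274 over Pdcd1lg2, and of Cd274, Pdcd1lg2, Cd276 and Vsir summed over Cd80 and Cd86 summed, in 3 Etv3-/- libraries (red circles, left) and 2 Etv3+/+ libraries (blue squares, right), with bars for the mean ± SD. Only the first ratio separates the genotypes, at -3.15 to -3.08 in Etv3-/- cells and -2.73 and -2.69 in Etv3+/+ cells.

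Promoter sequences are shown for the PD-1 ligand genes, which neighbour each other, and for Vsir, whose genotypes also did not overlap. They were taken from RefSeq on GRCm38.p6, which held 6 of the 7 members, all but Cd86, and cover 250 bases before to 50 after the gene start, 5′ to 3′. Both strands were searched for the ETS motif CCGGAA, the STAT motif TTCNNNGAA, the STAT6 motif TTCNNNNGAA, the interferon response motif GAAANNGAAA and the NF-kB consensus. Capitals mark matches, and no match says only that those letters are not in the window. Cd274 is on chr19:29367188-29367487, Pdcd1lg2 on chr19:29410669-29410968 and Vsir on chr10:60346601-60346900, all on the plus strand.
Cd274: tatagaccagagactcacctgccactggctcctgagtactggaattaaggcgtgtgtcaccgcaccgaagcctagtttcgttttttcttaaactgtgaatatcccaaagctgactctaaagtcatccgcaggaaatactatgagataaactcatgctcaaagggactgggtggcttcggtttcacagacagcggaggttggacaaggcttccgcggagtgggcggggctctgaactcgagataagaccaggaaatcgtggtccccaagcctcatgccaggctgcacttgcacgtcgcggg
Pdcd1lg2: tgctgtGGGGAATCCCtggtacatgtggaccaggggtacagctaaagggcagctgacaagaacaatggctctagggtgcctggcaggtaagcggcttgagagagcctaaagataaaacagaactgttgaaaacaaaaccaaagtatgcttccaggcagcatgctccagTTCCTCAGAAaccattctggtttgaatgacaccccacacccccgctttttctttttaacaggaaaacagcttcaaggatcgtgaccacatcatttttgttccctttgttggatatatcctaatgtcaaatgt
Vsir: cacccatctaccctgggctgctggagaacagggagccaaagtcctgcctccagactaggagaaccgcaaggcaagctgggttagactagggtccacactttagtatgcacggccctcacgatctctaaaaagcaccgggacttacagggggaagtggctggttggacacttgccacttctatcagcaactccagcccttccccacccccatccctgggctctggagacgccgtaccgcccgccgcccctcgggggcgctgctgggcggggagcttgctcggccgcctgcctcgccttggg
Of the 3, Pdcd1lg2 alone held matches, a STAT6 motif from position -82 relative to the start and an NF-kB motif from position -244 that matches on both strands. A STAT6 motif was present in 1 of 6 member promoters, where 6.95% of 32841 mouse promoters held one. The NF-kB motif was found in 2 of 6, Pdcd1lg2 and Icosl, where 8.46% of all promoters held it, and the ETS motif in 1 of 6, Cd276, where 14.9% did. Neither the STAT motif (8.30% of all promoters) nor the interferon motif (3.44%) was found in any of the 6.

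The PD-1 ligands lie in tandem. Cd274 (chromosome 19, 29367455 to 29388095, plus strand) was read at 31339, 28845 and 25114 normalized counts in Etv3-/- replicates 1 to 3, against 23080 and 35005 in Etv3+/+ replicates 1 and 2. All Etv3-/- values fell between the Etv3+/+ values. With a log2 fold change of -0.01 (95% interval -0.58 to 0.56, limma adjusted p = 0.994), these data set a bound of 1.49-fold on a fall and 1.48-fold on a rise. Its sign turned positive with TMM, total-count and quantile scaling, and the value was 0.29 without Etv3+/+ replicate 2 and -0.31 without Etv3+/+ replicate 1.

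Pdcd1lg2 (chromosome 19, 29410919 to 29471161, plus strand) was read at 9705, 9769 and 13257 normalized counts in Etv3-/- replicates 1 to 3, against 7887 and 8491 in Etv3+/+ replicates 1 and 2. Each Etv3-/- value exceeded both Etv3+/+ values. The log2 fold change of 0.40 (95% interval -0.10 to 0.90, limma adjusted p = 0.383) did not pass the test, and its interval runs up to 1.87-fold. Without Etv3-/- replicate 3, the highest library, it was 0.25. Within a library, the log2 ratio of Cd274 to Pdcd1lg2 was 1.39 ± 0.41 in Etv3-/- cells and 1.80 ± 0.35 in Etv3+/+ cells (SD, n = 3 and 2), with overlap and an exact permutation p = 0.6 over 10 splits. Etv3-/- replicate 3 had the lowest ratio, 0.92, and without it the difference of -0.40 became -0.17. Without Etv3+/+ replicate 1 or 2 it became -0.65 or -0.16. An annotated antisense gene overlaps each of Cd274 and Pdcd1lg2, and reads of the strands cannot be told apart if counting ignored strand.

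The remaining ligands were less abundant. Vsir (chromosome 10, 60346851 to 60372684, plus strand) was read at 2479, 2038 and 2767 normalized counts in Etv3-/- replicates 1 to 3, against 1887 and 1755 in Etv3+/+ replicates 1 and 2. The genotypes did not overlap, but the difference of 0.40 log2 units (95% interval -0.15 to 0.96, limma adjusted p = 0.417) did not pass the test. Vsir lies within the span of Cdh23, a cadherin gene on the opposite strand, whose level was 126 ± 49.8 normalized counts in Etv3-/- cells and 353 ± 83.5 in Etv3+/+ cells (SD, n = 3 and 2). The log2 fold change of Cdh23 was -1.53 (limma adjusted p = 0.216), opposite in sign to that of Vsir, and neither gene passed the test. Whether reads of Cdh23 entered the Vsir count was not tested.

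Icosl (chromosome 10, 78069302 to 78083913, plus strand) was read at 1417, 3118 and 3409 normalized counts in Etv3-/- replicates 1 to 3, against 3366 and 1219 in Etv3+/+ replicates 1 and 2. Each genotype held libraries near the low and the high end of the range. Its log2 fold change of 0.29 (95% interval -0.91 to 1.48, limma adjusted p = 0.818) rested on single libraries, at 1.02 without Etv3+/+ replicate 1 and -0.45 without Etv3+/+ replicate 2. It was 0.69 without Etv3-/- replicate 1, and 0.12 and 0.05 without Etv3-/- replicates 2 and 3.

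Cd276 (chromosome 9, 58524298 to 58555437, minus strand) was covered by 96, 3 and 32 recovered reads in Etv3-/- cells, against 0 and 41 in Etv3+/+ cells. In normalized counts these are 103, 3.72 and 28.1 in Etv3-/- cells and 0 and 35.1 in Etv3+/+ cells, where a count of 0 in Etv3+/+ replicate 1 allows up to 2.80. The log2 fold change of 2.01 has a 95% interval of -2.55 to 6.58 (limma adjusted p = 0.628), so no difference of either direction was detectable at this level. Without Etv3+/+ replicate 1 it was -0.57, and without Etv3+/+ replicate 2 it was 4.60. Without Etv3-/- replicate 1 or 2 it was 0.96 or 3.20.

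**Figure D3:**
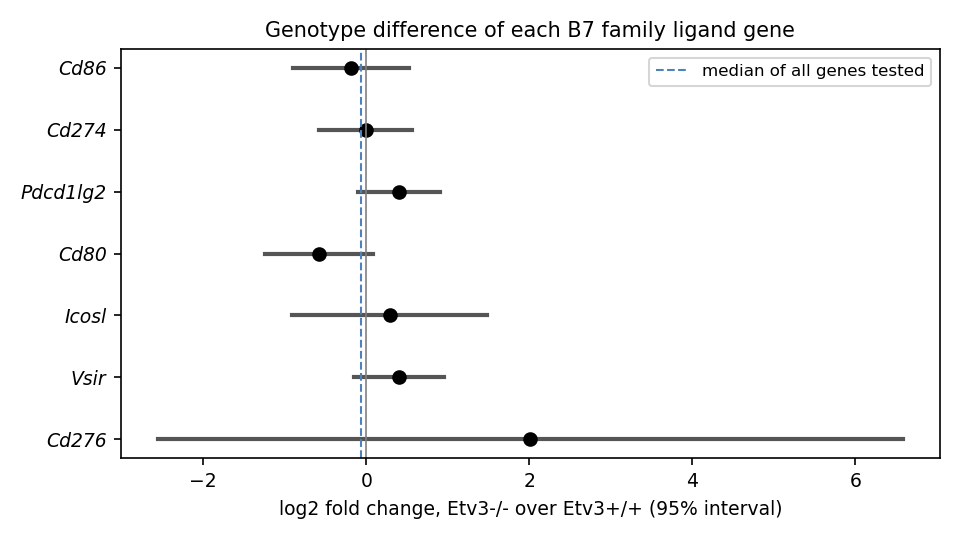
Log2 fold change of each B7 family ligand gene, Etv3-/- over Etv3+/+ (x axis), with points for the limma estimate and lines for its 95% interval. Each interval includes 0, and the dashed line marks the median of all genes tested, -0.06.

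Summed over roles, the genotypes overlapped. Cd274 and Pdcd1lg2 together had 39343 ± 1478 normalized counts in Etv3-/- cells and 37232 ± 8859 in Etv3+/+ cells, and Cd80 and Cd86 together 54974 ± 14544 and 64885 ± 21042 in Etv3-/- and Etv3+/+ cells (SD, n = 3 and 2). The log2 ratio of the summed inhibitory ligands Cd274, Pdcd1lg2, Cd276 and Vsir to the sum of Cd80 and Cd86 was -0.36 ± 0.40 in Etv3-/- cells and -0.71 ± 0.15 in Etv3+/+ cells. The exact permutation p was 0.4 over 10 splits, or 0.6 adjusted over the 3 ratios. Etv3-/- replicate 2, at -0.82, was as low as Etv3+/+ replicate 2. Without it the difference of 0.35 became 0.57, and without Etv3-/- replicate 1 it became 0.22.

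Base composition moved with several of these values. Across 13609 genes, the deviation of a library from the gene mean had a Spearman correlation with transcript GC content of 0.41 in Etv3-/- replicate 3 and -0.42 in Etv3+/+ replicate 2, and of -0.10 to 0.09 in the other libraries, given as a description. Among the members, the 3 with the lowest GC content, Cd80, Cd86 and Cd274, were highest in Etv3+/+ replicate 2, by 0.70, 0.45 and 0.30 log2 units above their means. Pdcd1lg2, Icosl and Vsir, at 49.5% to 54.0% GC, were highest in Etv3-/- replicate 3, by 0.46, 0.58 and 0.36. Icosl was nearly as high in Etv3+/+ replicate 1, at 0.56. Cd276, with the highest GC content, 56.2%, and few reads, was highest in Etv3-/- replicate 1, by 2.91, against 1.07 in Etv3-/- replicate 3. After subtraction of a local fit to GC content and length, the log2 fold change was -0.18 for Cd80 (limma adjusted p = 0.644), 0.15 for Cd86, 0.23 for Cd274, 0.27 for Pdcd1lg2 and 0.32 for Vsir (limma adjusted p = 0.434). For Icosl and Cd276 it was 0.14 and 1.91.

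**Figure D4:**
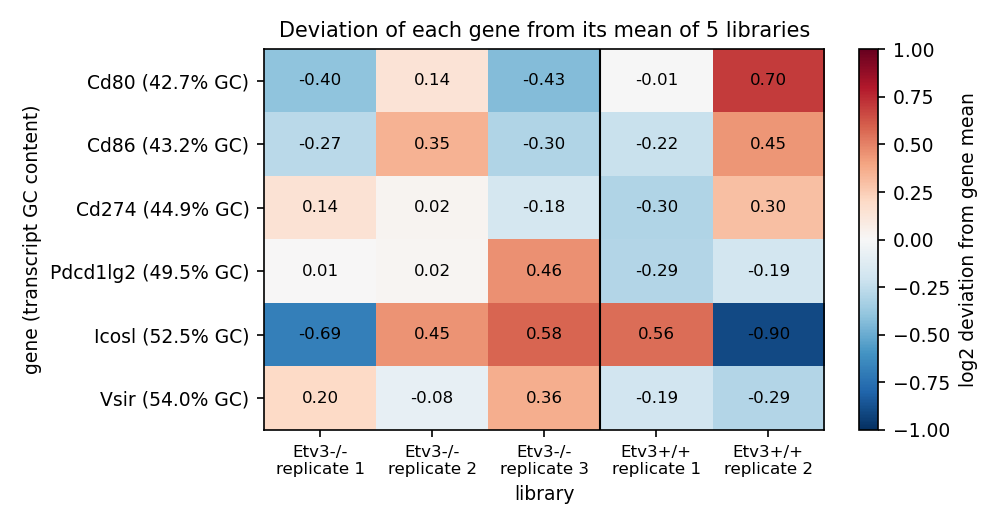
Deviation of log2(normalized count + 1) from the gene's mean of 5 libraries (colour, with values) for 6 members ordered by transcript GC content (rows) in Etv3-/- libraries (left of the line) and Etv3+/+ libraries (right of it). Cd276 is left out because of its low counts. The 3 upper rows are highest in Etv3+/+ replicate 2 and the 3 lower rows in Etv3-/- replicate 3.

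Genes that act with the ligands were described by counts. Beside this list and those that follow, the shares over all genes tested were 1.19% called by limma, 1.14% by edgeR and 8.46% by DESeq2. At an unadjusted limma p under 0.05 the share was 18.0%, and the median log2 fold change was -0.06. Among the receptors of the members, 0 of 7 tested genes were called by limma or edgeR and 1 by DESeq2, with 2 higher and 1 lower at an unadjusted p under 0.05 and a median log2 fold change of 0.41. The 2 higher were Treml2 and Ctla4. Treml2 averaged 1714 ± 266 normalized counts in Etv3-/- cells and 669 ± 63.7 in Etv3+/+ cells (limma adjusted p = 0.0665). Ctla4 averaged 153 ± 102 in Etv3-/- cells and 27.4 ± 38.7 in Etv3+/+ cells (limma adjusted p = 0.238). Selplg, which encodes the VISTA-binding glycoprotein PSGL-1, averaged 66707 ± 7585 normalized counts in Etv3-/- cells and 52482 ± 7768 in Etv3+/+ cells. Rgmb, a PD-L2-binding protein, averaged 1703 ± 211 in Etv3-/- cells and 2774 ± 528 in Etv3+/+ cells (limma adjusted p = 0.208). Among other B7 and butyrophilin relatives, 3 of 6 were high enough to be tested. Of these, 0 were called by limma or edgeR and 1 by DESeq2, with 1 higher at an unadjusted p under 0.05. The median of 3.16 was the value of a single gene with low counts, Btnl2. Btnl2 averaged 17.5 ± 16.3 in Etv3-/- cells and 0 in Etv3+/+ cells (limma adjusted p = 0.485). Its genotypes overlapped, and at such counts the log2 fold change depends on the pseudocount. Btn2a2, a butyrophilin that inhibits T cells, averaged 224 ± 74.3 in Etv3-/- cells and 11.6 ± 16.3 in Etv3+/+ cells (limma adjusted p = 0.106). Its value in Etv3+/+ replicate 1 was 0, while Btn1a1 was at 0 in 3 of the 5 libraries.

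Upstream of the ligands, 0 of 24 cytokine receptor, JAK, STAT and IRF genes were called by limma or edgeR and 1 was called lower by DESeq2, with 1 higher and 3 lower at an unadjusted p under 0.05 and a median log2 fold change of 0.02. Jak2, a kinase of the GM-CSF and interferon gamma receptors, averaged 96066 ± 15740 normalized counts in Etv3-/- cells and 155343 ± 31282 in Etv3+/+ cells (limma adjusted p = 0.244). It lies on chromosome 19 within 500 kb of the PD-1 ligand genes. Irf8, a dendritic cell transcription factor, averaged 86533 ± 3243 in Etv3-/- cells and 109788 ± 20957 in Etv3+/+ cells. Of 16 NF-kB genes limma and edgeR each called 1 higher and 0 lower, and DESeq2 called 2 higher and 2 lower, with 2 higher and 2 lower at an unadjusted limma p under 0.05. The gene that rose with limma was Ikbke, an IKK-related kinase, at 4525 ± 224 in Etv3-/- cells and 1809 ± 311 in Etv3+/+ cells (log2 fold change 1.33, limma adjusted p = 0.0365). That call was lost with any single library left out, at limma adjusted p = 0.0754 to 0.157 and log2 fold changes of 1.16 to 1.51. The median of that list was -0.25.

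Of 16 genes that act on B7 proteins after translation, 0 were called by limma, edgeR or DESeq2, with a median log2 fold change of -0.03. At an unadjusted limma p under 0.05, 0 were higher and 4 lower. The 4 lower were Gsk3b, Adam10, Marchf8 and Cops5, at log2 fold changes of -0.97, -0.89, -0.83 and -0.57 (limma adjusted p = 0.238 to 0.253). The 2 most abundant genes of the list were not among them. Cd83, whose protein shields CD86 from the ubiquitin ligase MARCH1, averaged 195098 ± 15198 normalized counts in Etv3-/- cells and 143799 ± 35365 in Etv3+/+ cells (limma adjusted p = 0.431). Cmtm6, which keeps PD-L1 at the cell surface, averaged 54194 ± 2295 in Etv3-/- cells and 53340 ± 791 in Etv3+/+ cells.

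Among TNF family costimulatory genes, another class of dendritic cell signal to T cells, limma and edgeR each called 1 of 7 tested higher and DESeq2 called 3, with 3 higher at an unadjusted limma p under 0.05 and 0 lower throughout. The gene that rose with limma was Cd70, the ligand of CD27. It was read at 1539, 1656 and 1367 normalized counts in Etv3-/- cells, against 374 and 345 in Etv3+/+ cells (log2 fold change 2.08, limma adjusted p = 0.0249), with no overlap. Its log2 fold change was 2.01 to 2.15 with any single library left out, but the call was lost each time, at limma adjusted p = 0.0645 to 0.126. The median of that list was 1.10, beside 0.29 for the B7 ligands and -0.06 over all genes tested. Whether the lists differ was not tested. Over all genes tested, limma called 1.19%, edgeR 1.14% and DESeq2 8.46%, and 18.0% had an unadjusted limma p under 0.05. Of 25 mature dendritic cell genes limma and edgeR each called 0 higher and 1 lower, and DESeq2 called 2 higher and 6 lower, with 2 higher and 9 lower at an unadjusted limma p under 0.05. The gene that fell with limma was Il12b, the p40 chain of IL-12, at 1912 ± 654 in Etv3-/- cells and 7170 ± 988 in Etv3+/+ cells (log2 fold change -1.97, limma adjusted p = 0.0419), with a list median of -0.07. That call too was lost with any single library left out, at limma adjusted p = 0.0977 to 0.150.

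Genes near the members were described in the same way. Of 66 tested protein-coding genes within 500 kb of a member, 0 were called by limma or edgeR. DESeq2 called 5, where it called 8.46% of all genes tested. At an unadjusted limma p under 0.05, 8 were higher and 8 lower, where 18.0% of all genes fell under that level. The median log2 fold change of the 66 was 0.02. Beside the PD-1 ligand genes, Plgrkt, a plasminogen receptor gene, averaged 6112 ± 1164 normalized counts in Etv3-/- cells and 5435 ± 376 in Etv3+/+ cells (limma adjusted p = 0.771). On the other side, Ric1, a Golgi trafficking gene, averaged 1714 ± 588 in Etv3-/- cells and 4243 ± 957 in Etv3+/+ cells (log2 fold change -1.34, limma adjusted p = 0.102). Next to Vsir, Psap, which encodes the saposin precursor of the lysosome, averaged 204828 ± 27066 in Etv3-/- cells and 125506 ± 6198 in Etv3+/+ cells (limma adjusted p = 0.232).

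**Figure D5:**
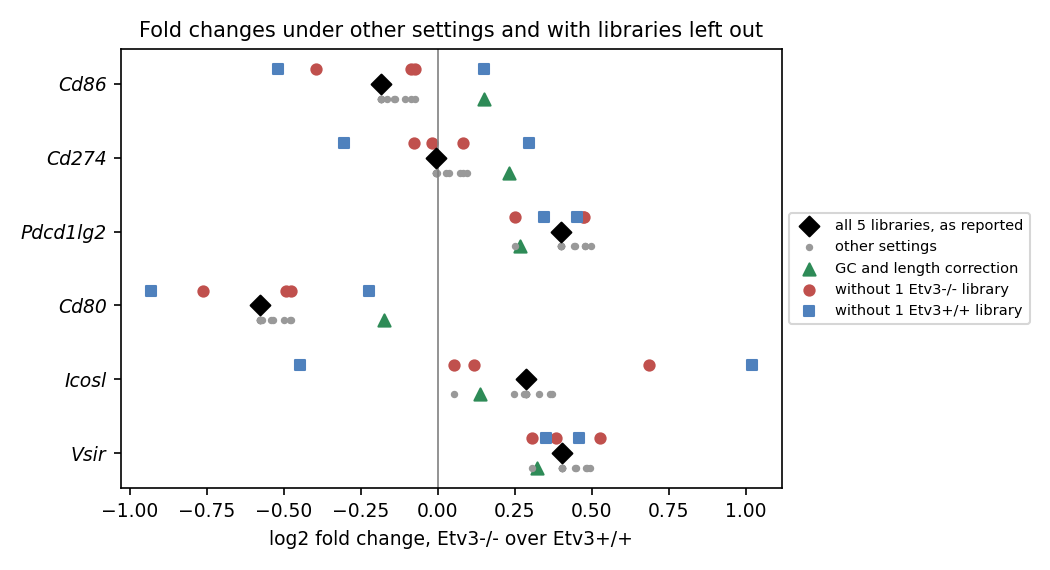
Log2 fold change of 6 members, Etv3-/- over Etv3+/+ (x axis), with all 5 libraries (black diamonds), without 1 Etv3-/- library (red circles), without 1 Etv3+/+ library (blue squares), after GC and length correction (green triangles) and under other settings (grey points). Pdcd1lg2 and Vsir stay above 0 and Cd80 below 0 at every point, whereas Cd86, Cd274 and Icosl fall on both sides.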

How the data were processed

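The deposited signal is normalized counts per gene, scaled by one factor per library. Trimmomatic 0.36, STAR 2.7.3a, featureCounts, Subread 1.6.3, DESeq2 1.26.0 and mm10 are named per the submitters' processing notes, while annotation, strand setting and filters are not stated there. Libraries were made with a low-input SMART-Seq kit from up to 60000 cells, per the labels' protocols, so PCR copies count as reads. Values were multiples of one step per library; dividing by it gave recovered reads, whole to within 0.1 in 100% of cases.

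Genes reaching a normalized count of 10 in 2 libraries entered limma 3.58.1 under R 4.3.3 (lmFit; eBayes, trend=TRUE) as log2(normalized count + 1), two-sided, with Benjamini-Hochberg adjustment over all genes and a threshold of 0.05. On that scale changes of low genes depend on the pseudocount. For Cd276 the limma log2 fold change was 2.46 with a pseudocount of 0.5 and 1.15 with 5. With edgeR and DESeq2 it was 1.40 and 1.38. Since the labels do not say that libraries are separate mice, p-values measure the spread between libraries, which may be technical. Ratios used exact permutation tests. edgeR 4.0.16 and DESeq2 1.42.0 on recovered reads, other scalings, filters and pseudocounts, the replicate block and single-library omissions were alternatives. The limma procedure was tested on simulated data. Figures were drawn with matplotlib 3.10.9.

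Members and lists were chosen with earlier results of these data known. Named genes were the members, Etv3, list members past the threshold (up to 4, or else the 2 most abundant), adjacent protein-coding genes, and for each member the 2 genes of nearest pattern with a mean of 100 or more. Further list genes are named where they carry a count, sum or median that is given. Deviations from the group means correlated by -0.03 and 0.04 between libraries that share a number.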

Additional observations from a re-analysis of the deposited data

How the results depend on the processing

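No member passed the threshold in any of up to 18 other fits (12 settings and 5 omissions for Cd276, which the filter of 50 removes). Cd80 stayed negative, and Pdcd1lg2 and Vsir positive, in every fit. Cd80 fell under an unadjusted p of 0.05 without Etv3-/- replicate 2 or Etv3+/+ replicate 1. With single libraries left out the log2 fold change ran from -0.93 to -0.22 for Cd80, -0.52 to 0.15 for Cd86, -0.31 to 0.29 for Cd274, 0.25 to 0.48 for Pdcd1lg2, -0.45 to 1.02 for Icosl, -0.57 to 4.60 for Cd276, 0.30 to 0.52 for Vsir and -0.31 to -0.16 for Etv3. Reversals for Cd274 were 0.23 with the GC and length correction, 0.036 with TMM, 0.025 with edgeR, 0.094 with quantile scaling, 0.073 with total-count scaling and 0.081 with the replicate block; for Cd86, 0.15 with the GC and length correction. The cause was not tested. Over all genes, 121 higher and 44 lower became 636 and 533 with DESeq2, 234 and 109 with the GC and length correction, and 151 and 118 with the replicate block. They were 144 and 70 with a pseudocount of 5 and 44 and 49 with trend=FALSE. Single-library omissions gave 0 to 73 higher and 0 to 7 lower. The fit with 0 calls, limma without Etv3-/- replicate 1, had 1885 genes at an unadjusted p under 0.05. Replicate 3 has no Etv3+/+ partner, so the block rests on replicates 1 and 2, and it changed no call of a member. A lone Etv3+/+ library is assumed to vary like the others. Counts of Cd276 were low, at 0 to 96 reads per library, and varied widely within each genotype. Whether depth or this variation limits its estimate was not tested.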

Other observations

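The genes whose pattern over the 5 libraries was nearest to that of a member were found by the root mean square difference of log2 values centred on each gene's mean, among genes with a mean normalized count of 100 or more. Snapc3 and Zfp207 were nearest to Cd80, at 0.04 log2 units each, and Fubp1 and Hspa4l to Cd86, at 0.05 and 0.06. Ncoa6 and Strap were nearest to Cd274, at 0.04 each, and Xpo5 and Tarm1, a myeloid activating receptor gene, to Pdcd1lg2, at 0.04 each. Dnase2a and Alkbh7 were nearest to Vsir, at 0.03 each, and Gtse1 and Fbxl2 to Icosl, at 0.16 and 0.17. For Cd276 the nearest were Knl1 and Ckap2, at 0.97 and 0.98. Within the family the closest pair was Pdcd1lg2 and Vsir, at 0.13, then Cd80 and Cd86, at 0.19. They were ranked over 5 libraries and 10976 genes (10977 for Cd276) and are given as values.

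Marker counts below stand beside shares over all genes tested of 1.19% called by limma, 1.14% by edgeR and 8.46% by DESeq2. At an unadjusted limma p under 0.05 that share was 18.0%. Of 12 macrophage and monocyte markers limma and edgeR each called 3 higher and DESeq2 called 8, with 9 higher at an unadjusted limma p under 0.05, 0 lower throughout and a median log2 fold change of 1.39. Those that rose with limma were C1qa, C1qb and C1qc, with C1qa at 851 ± 325 normalized counts in Etv3-/- cells and 84.8 ± 31.6 in Etv3+/+ cells (SD, n = 3 and 2; limma adjusted p = 0.0280). Of 9 dendritic cell markers limma called 1 higher, edgeR 2 and DESeq2 5, with 5 higher at an unadjusted limma p under 0.05, 0 lower throughout and a median of 1.24. The gene that rose with limma was Ciita, the class II transactivator gene, at 13949 ± 1049 in Etv3-/- cells and 5636 ± 1350 in Etv3+/+ cells (limma adjusted p = 0.0380). With any single library left out the calls of C1qa, C1qb and Ciita were lost, and C1qc was called when the library left out was Etv3+/+, and not when it was Etv3-/-. Of 8 B cell markers limma and edgeR called 0 and DESeq2 called 4 higher. At an unadjusted limma p under 0.05, 5 were higher and 0 lower, with a median of 1.80. Ms4a1 and Ebf1 went the other way, at log2 fold changes of -1.01 and -1.37. The 8 T and NK cell markers made up 0.00323% to 0.00554% of normalized counts in Etv3-/- cells and 0.00703% and 0.00757% in Etv3+/+ cells. Of the 7 tested, limma, edgeR and DESeq2 called 0. At an unadjusted limma p under 0.05, 0 were higher and 3 lower, with a median of -1.14. The 8 neutrophil markers made up 0.0216% to 0.122% in Etv3-/- cells and 0.0777% and 0.0841% in Etv3+/+ cells. The 5 mast cell and basophil markers made up 0.0143% to 0.0302% in Etv3-/- cells and 0.0140% and 0.0298% in Etv3+/+ cells. Neither the neutrophil nor the mast cell and basophil list held a gene at an unadjusted limma p under 0.05. Their medians were -0.92 and -0.65. Mitochondrial genes took 1.10% to 3.17% of normalized counts in Etv3-/- cells and 1.98% and 6.64% in Etv3+/+ cells.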
